A study of Mus musculus with 9 samples.

Results

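A set of 10 genes of endothelial tight and adherens junctions was read in endothelial cells sorted from retinas of mice given an antibody against PDGFRb. The genes are the claudin Cldn5, the tetraspan protein occludin (Ocln), the scaffold ZO-1 (Tjp1), the tricellular junction protein angulin-1 (Lsr), the immunoglobulin-like adhesion molecules JAM-A (F11r), JAM-B (Jam2) and Esam, the cadherin VE-cadherin (Cdh5), and its cytoplasmic partners alpha-catenin (Ctnna1) and p120-catenin (Ctnnd1). Every probe set whose platform annotation gave exactly 1 gene symbol, and that symbol 1 of these 10, was taken. This gave 20 probe sets of 36701 in all, 12 of them on array design A and 4 each on designs B and C, for 10 of 15964 named genes. All 10 genes had at least 1 probe set.

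The arrays were Affymetrix MG-U74v2 oligonucleotide arrays, which come as 3 complementary designs with different probe sets. All 9 arrays carried RNA of GFP-positive retinal cells from homozygous Tie2-GFP mouse pups at postnatal day 8, injected intraperitoneally from day 0 to day 7 with APB5, an antibody that neutralises PDGFRb. Each design had 3 replicates, and no untreated group was analysed here, so the effect of the antibody on these genes cannot be read and no test between conditions was made. Retinas were pooled before sorting, and the labels do not say whether replicates came from separate pools, so each spread is that between arrays and may be technical. The Tie2 promoter is active in endothelium and also in some blood cells.

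Endothelial cells seal the gap between neighbours with strands of claudins, which ZO-1 ties to the actin cytoskeleton. In retinal capillaries these strands form part of the inner blood-retina barrier, together with occludin and, where 3 cells meet, angulin-1. Adherens junctions hold the cells together through VE-cadherin, whose cytoplasmic tail binds p120-catenin, which keeps it at the surface, and beta-catenin, which binds alpha-catenin and so reaches actin. Pericytes, which endothelial cells recruit by signalling through PDGFRb, are known to promote barrier formation in the central nervous system.

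Signals of these genes lay high on the arrays. The position of a probe set is its percentile rank on an array (0 lowest, 100 highest), given as the mean of 3 arrays. The median position of the 20 probe sets was 90.2, against 50.02 for all probe sets of the series. A floor was set at the 40th percentile of each array, and a probe set counted as above it when it exceeded it on all 3 arrays of its design. Of the 20 probe sets, 14 were above the floor, against 56.5% of all probe sets. Design A held 7 of 12, against 56.6% of all its probe sets, design B held 3 of 4, against 56.4%, and design C held 4 of 4, against 56.4%. The share on design A was thus close to that of all probe sets. All 10 genes had at least 1 probe set above the floor, against 72.4% of all named genes. Of 30 measured genes foreign to the retina, 15 also had one, so that passing the floor does not show that a transcript was present. The strongest probe set lay above percentile 90 for 8 of the 10 genes, against 17.1% of all named genes. Lsr and Ocln were the exceptions, and this mark was chosen after values were seen. Of the 30 genes foreign to the retina 1 also passed it, the testis gene Prm1 at 90.3. A gene with more probe sets has more chances to pass either mark, and genes were not matched on that number. Probe sets also differ in how well they hybridise, so positions of different genes are not an order of their transcript levels. In a bulk sample of sorted cells, fewer cells of a type and less RNA per cell cannot be told apart.

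**Figure D1:**
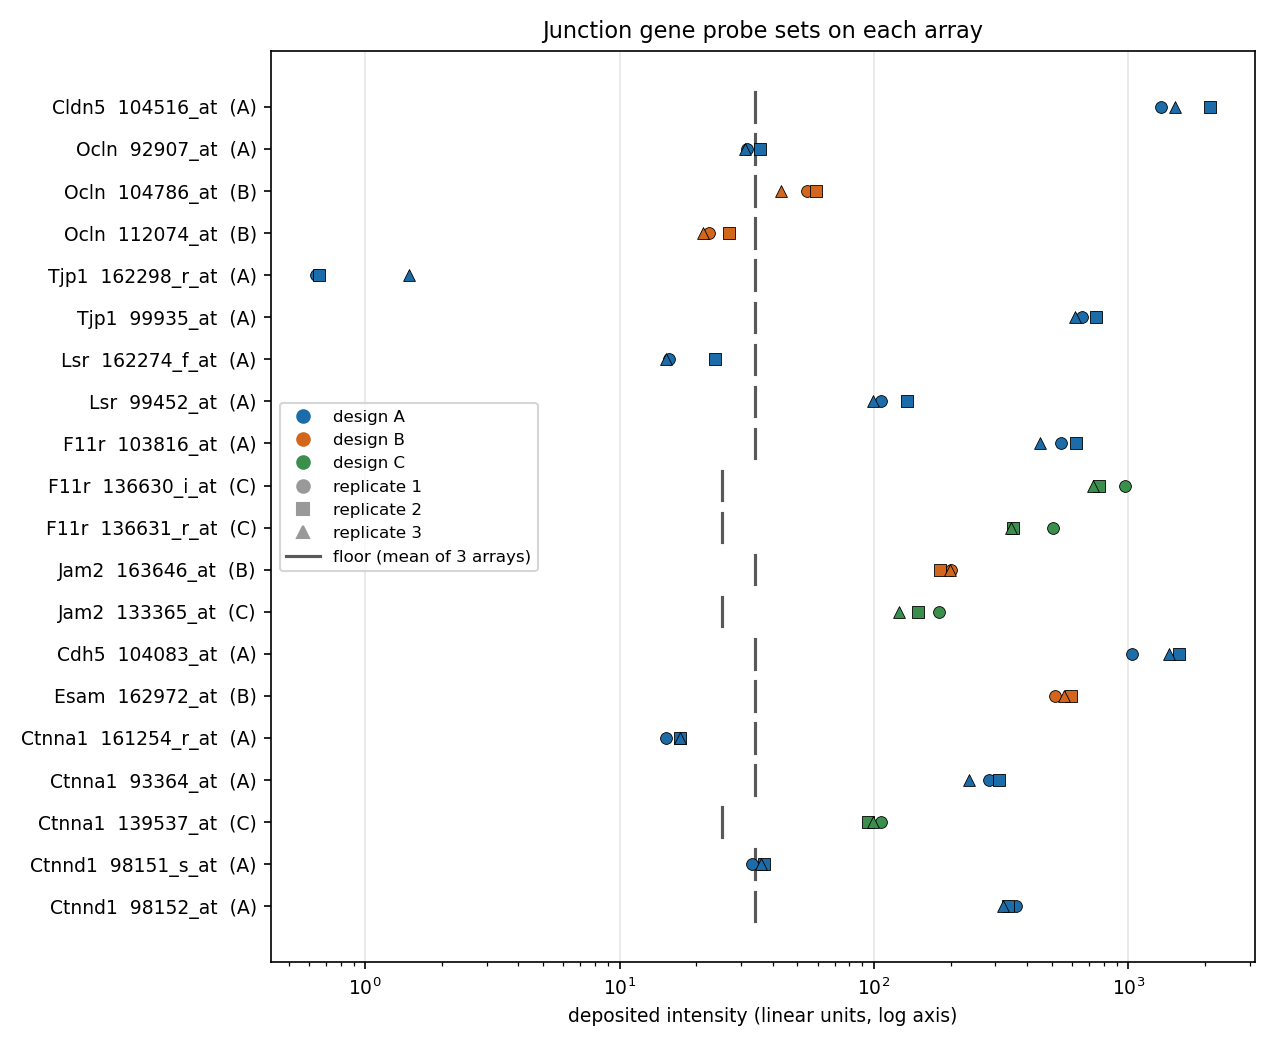
Deposited intensity (log axis) of the 20 junction gene probe sets, 1 row per probe set, with its array design in parentheses. Points are single arrays, colours the designs, shapes the replicates, and the vertical tick marks the floor as the mean of the 3 arrays of that design. Cldn5 and Cdh5 read at least 1032 on every array, whereas Tjp1 has 1 probe set at 618 or more and another at 1.48 or less.

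Cldn5, the main claudin of brain and retinal capillaries, had 1 probe set, 104516_at on design A. It read 1339, 2095 and 1529 in replicates 1, 2 and 3, a mean of 1654 ± 393 (SD, n = 3), at percentile 99.2 ± 0.33. Replicate 2 was the high array and read 1.56 times replicate 1, the low one. All 3 arrays were far above their floors of 33.5, 34.2 and 34.9.

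Upstream sequences are shown for Cldn5, the highest of these genes on design A, and for Ocln, whose strongest probe set was the lowest of the 10. They are the 250 bases before the annotated start, from RefSeq for GRCm38.p6, and capitals mark the CCAAT box, searched as CCAAT on either strand (ATTGG on the other). Of the 10 genes, 6 were matched in the promoter table, with 8 annotated starts, and for Ocln the more upstream of its starts is shown. Cldn5 lies at chr16:18776597-18776846 on the plus strand and Ocln at chr13:100552719-100552968 on the minus strand.
Cldn5: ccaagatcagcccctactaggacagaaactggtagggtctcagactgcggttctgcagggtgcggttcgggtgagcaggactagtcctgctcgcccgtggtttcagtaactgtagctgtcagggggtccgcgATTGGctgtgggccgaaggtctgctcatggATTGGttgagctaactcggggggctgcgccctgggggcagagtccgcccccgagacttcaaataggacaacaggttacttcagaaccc
Ocln: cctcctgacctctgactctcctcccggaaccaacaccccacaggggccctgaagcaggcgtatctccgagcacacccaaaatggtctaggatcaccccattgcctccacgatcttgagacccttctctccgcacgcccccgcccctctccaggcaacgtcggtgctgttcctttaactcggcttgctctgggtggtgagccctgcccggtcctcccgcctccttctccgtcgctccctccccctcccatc
The Cldn5 window held 2 CCAAT boxes, the Ocln window shown none, and that of the other annotated Ocln start 1. The motif was found in 5 of the 8 windows of these genes and in 33.8% of 32851 windows of the same length over all genes. Windows of 1 gene are not independent. By gene it was found for 4 of the 6, against 37.5% of all genes. The TATA box, searched as TATAAA on both strands, was found in 1 of the 8 windows, at Ctnnd1, and in 12.4% of all windows. The letters AGGAAG, which hold the core that ETS factors bind, searched on both strands, were found in 2 of the 8 windows, both at Ctnnd1, and in 29.5% of all windows. These are matches of letters, and the arrays do not measure binding.

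Occludin, which joins claudin strands and regulates them, had the lowest signals of the 10 genes when each was taken by its strongest probe set. That probe set, 104786_at on design B, read 54.6, 59.1 and 43.2 in replicates 1, 2 and 3, at percentile 56.4 ± 6.8 (SD, n = 3), above the floor on all 3 arrays. Another on design B, 112074_at, read 22.5, 26.8 and 21.3, at percentile 25.7 ± 4.7 (SD, n = 3), below the floor on all 3. The third, 92907_at on design A, read 31.7, 35.6 and 31.1, at percentile 38.1 ± 3.3 (SD, n = 3), and exceeded the floor on 1 of 3 arrays. With the floor at the 50th percentile Ocln had no probe set above it.

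Lsr encodes angulin-1, which recruits other proteins to the corners where 3 cells meet. Its probe set 99452_at on design A read 107, 135 and 99.3 in replicates 1, 2 and 3, at percentile 77.4 ± 2.5 (SD, n = 3). It was above the floor on every array, with replicate 2 the highest. The other, 162274_f_at, whose suffix marks a family of similar sequences, read 15.7, 23.7 and 15.2, at percentile 17.5 ± 7.4 (SD, n = 3), below the floor on all 3. Epithelial cells also use Ocln, Lsr and F11r. Of 10 epithelial marker genes, all measured, 5 had a probe set above the floor, against 72.4% of all named genes. On all 3 arrays, 0 of them had a probe set above the 90th percentile of genes foreign to the retina, against 55.3%. Their 11 probe sets on design A summed to between 363 and 466 per array. No epithelial marker value was 0, and Epcam was the highest by position, at percentile 82.4 ± 0.68 on design C (SD, n = 3). The part of such cells in the Ocln and Lsr signals was not tested.

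ZO-1, the scaffold that binds claudins, occludin and JAM-A, showed the widest gap between probe sets. Tjp1 probe set 99935_at on design A read 656, 744 and 618 in replicates 1, 2 and 3, at percentile 96.9 ± 0.22 (SD, n = 3). Probe set 162298_r_at on the same arrays read 0.64, 0.66 and 1.48, at percentile 0.059 ± 0.019 (SD, n = 3), among the lowest values of the design. Its suffix says that some probe selection rules were dropped when it was designed.

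The JAM proteins and Esam are immunoglobulin-like molecules that bind across the junction and also guide passing leukocytes. Of the genes with 3 probe sets, F11r (JAM-A) had the most even ones. They lay at percentiles 95.8 ± 0.65, 99.4 ± 0.17 and 97.5 ± 0.53 (SD, n = 3 each), a gap of 3.5 points between the highest and the lowest. On design A, 103816_at read 543, 624 and 451 in replicates 1, 2 and 3, with replicate 3 the lowest. On design C, 136630_i_at read 968, 765 and 724, with replicate 1 the highest. Probe set 136631_r_at on the same design read 506, 353 and 346, again with replicate 1 the highest.

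Jam2 (JAM-B), found on endothelium of vessels and lymphatics, gave like positions on the designs that carried it. Probe set 163646_at on design B read 200.0, 182 and 198 in replicates 1, 2 and 3, at percentile 89.7 ± 0.42 (SD, n = 3), and these arrays lay close together. Probe set 133365_at on design C read 179, 148 and 125, at percentile 90.7 ± 1.9 (SD, n = 3). Esam, an adhesion molecule of endothelial tight junctions and platelets, had probe set 162972_at on design B, which read 513, 594 and 561, at percentile 98.2 ± 0.47 (SD, n = 3). Both genes were thus above the floor on every array read.

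Platelets and leukocytes carry JAM-A, and platelets carry Esam. Of 7 platelet marker genes 5 were measured, and 3 of these had a probe set above the floor, against 72.4% of all named genes. The highest was Itga2b at percentile 72.6 ± 2.0 on design C (SD, n = 3), and Ppbp on design B was at 9.8 ± 3.5 (SD, n = 3). The 3 platelet probe sets on design A summed to between 177.5 and 199.6 per array, and no value was 0. Of 10 leukocyte marker genes, 6 had a probe set above the floor, against the same 72.4%. On all 3 arrays, 1 platelet gene and 2 of these 10 exceeded the 90th percentile of genes foreign to the retina. The share of all named genes was 55.3%. The lysosomal gene Laptm5 was the highest, at percentile 98.8 ± 0.88 on design C (SD, n = 3), where it read 486, 810 and 787, with replicate 1 the lowest. The 16 leukocyte probe sets on design A summed to between 808 and 899. The part of blood cells in the F11r and Esam signals was not tested.

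VE-cadherin, the adhesive core of the endothelial adherens junction, had 1 probe set. Cdh5 probe set 104083_at on design A read 1032, 1576 and 1439 in replicates 1, 2 and 3, a mean of 1349 ± 283 (SD, n = 3), at percentile 98.8 ± 0.49. Replicate 1 was the low array, as for Cldn5, and the highest array read 1.53 times the lowest.

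The cadherin tail binds p120-catenin directly and alpha-catenin through beta-catenin. Ctnnd1 (p120-catenin) probe set 98152_at on design A read 363, 336 and 322 in replicates 1, 2 and 3, at percentile 92.7 ± 0.40 (SD, n = 3). Its second probe set on that design, 98151_s_at, whose suffix marks probes shared between transcripts, read 33.2, 36.9 and 36.1, at percentile 41.4 ± 1.7 (SD, n = 3), and exceeded the floor on 2 of 3 arrays. Ctnna1 (alpha-catenin) had 3 probe sets, and they differed widely. On design A, 93364_at read 284, 309 and 236, at percentile 90.7 ± 0.95 (SD, n = 3), and 161254_r_at read 15.2, 17.2 and 17.2, at percentile 14.8 ± 1.2 (SD, n = 3), below the floor. On design C, 139537_at read 106, 94.8 and 99.1, at percentile 84.8 ± 0.49 (SD, n = 3).

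Disagreement between probe sets of a gene was seen for several of the members, as for many genes of the series. Of the 7 genes with more than 1 probe set, 5 (Ocln, Tjp1, Lsr, Ctnna1 and Ctnnd1) had at least 1 probe set above the floor and 1 not above it, against 57.1% of all genes with 2 or more. The median gap between a gene's highest and lowest probe set was 51.3 percentile points over these 7 genes, against 37.6 points over the 7645 genes of the series with 2 or more. Genes were not matched on their number of probe sets. Of 6 probe sets whose names carry a suffix letter for shared or incomplete probes, 2 were above the floor, both for F11r, and of 14 plain ones 12 were. Over all probe sets of the series, 49.98% of suffixed and 58.5% of plain ones were above it. The 2 plain probe sets of these genes that were not above it both belonged to Ocln.

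Replicate arrays of designs A and C differed more for these genes than for the median probe set. With log2 intensities set relative to each array's median, the median SD over 3 arrays was 0.22 for the 14 probe sets above the floor, against 0.12 for all probe sets above it. On design A it was 0.23 for the 7 probe sets, against 0.13 for all above the floor and 0.15 for all above percentile 90. On design B it was 0.12 for the 3, against 0.12 for all above the floor and 0.14 for all above percentile 90. On design C it was 0.23 for the 4, against 0.12 and 0.16. The highest SD of these 4 was 0.31, below 0.35, the 90th percentile of the SD among probe sets of design C above percentile 90. The SD was 0.32 for Cldn5 and 0.31 for Cdh5, and 0.30 was the 90th percentile of the SD among the 1232 probe sets of design A above percentile 90. On design A the difference was smaller without replicate 2 (0.14, against 0.094 for all) or replicate 3 (0.13, against 0.099) than without replicate 1 (0.24, against 0.11), and the value for these genes stayed above that for all. On design C it rested on replicate 1, without which it was 0.050, against 0.091 for all. Without replicate 2 or 3 on design C it was 0.32 and 0.22, against 0.090 and 0.097. With the arrays of 1 number left out on every design, the median SD over all 3 designs was 0.096 without replicate 1, 0.17 without replicate 2 and 0.15 without replicate 3, against 0.098, 0.094 and 0.10 for all probe sets. The labels do not say that arrays of equal number share an RNA sample.

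**Figure D2:**
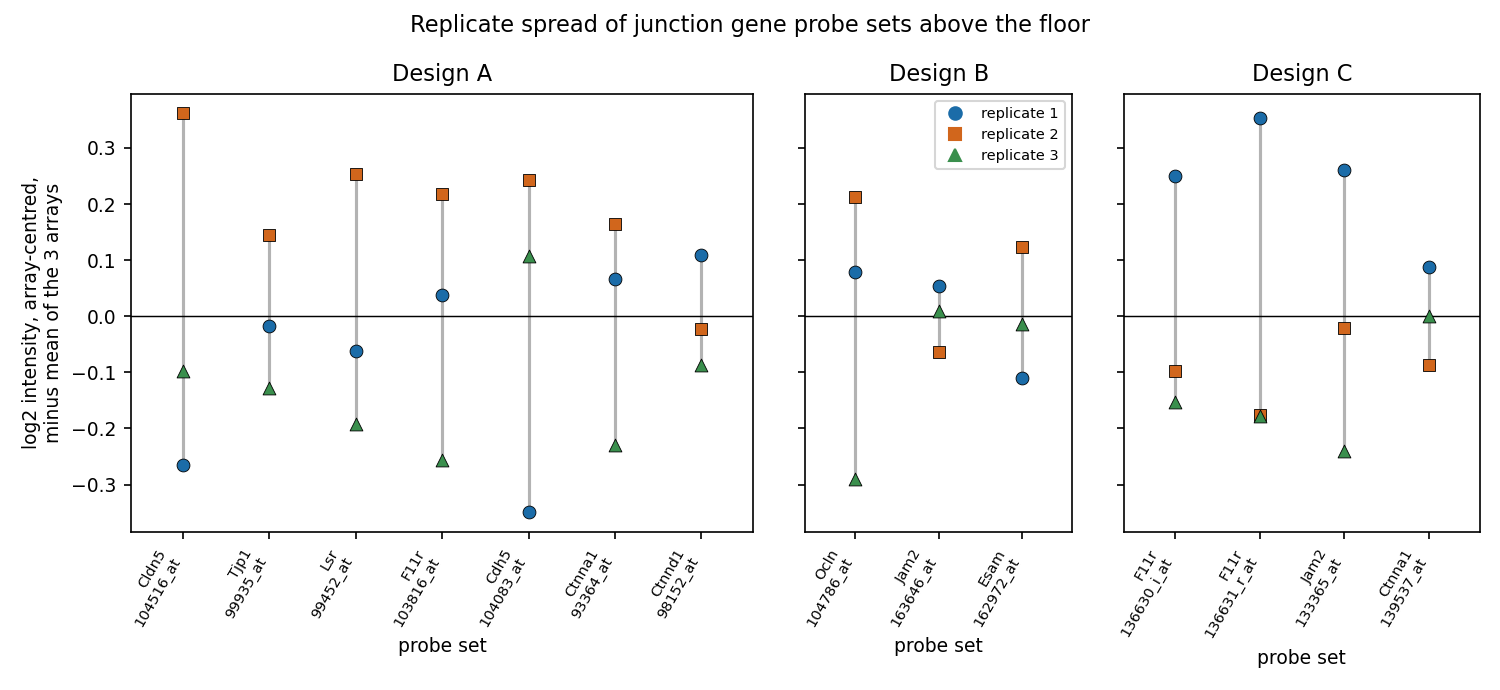
Deviation of each array from the mean of the 3 arrays (log2 intensity centred on the array median) for the 14 junction gene probe sets above the floor, in 1 panel per array design. Points are single arrays and shapes the replicates. On design A replicate 2 is the highest for 6 of 7 probe sets, and on design C replicate 1 is the highest for 4 of 4.

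The deviating arrays were shared by several of the genes. On design A, replicate 2 was the highest of the 3 arrays for 6 of 7 probe sets, against 44.8% of all probe sets above the floor. Ctnnd1 was the exception, with replicate 1 the highest. Replicate 3 was the lowest for 5 of 7, against 45.9% of all, and replicate 1 for the other 2, Cldn5 and Cdh5. The median deviation of replicate 2 was 0.22 log2 units for these 7 probe sets, against 0.04 for all above the floor and 0.06 for all above percentile 90. On design C, replicate 1 was the highest for 4 of 4 probe sets, against 40.4% of all, and 2 of these 4 belong to F11r. Its median deviation was 0.26 log2 units, against 0.02 for all above the floor and 0.11 for all above percentile 90. Other endothelial markers did not share these arrays to the same count. Replicate 2 was the highest for 8 of their 17 probe sets above the floor on design A, and replicate 1 for 0 of their 4 on design C. Of those 4, Kdr at percentile 49.6 and Egfl7 at 43.1 lay near the floor. Among other junction genes on design C, replicate 1 was the highest for some, as Cldn12 and Heg1, but not for others, as Ctnnal1. These genes are examples, and the share over the other junction genes was not counted. With 3 arrays of 1 condition no test of an array was made, and the part of array quality in these shifts was not tested.

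**Figure D3:**
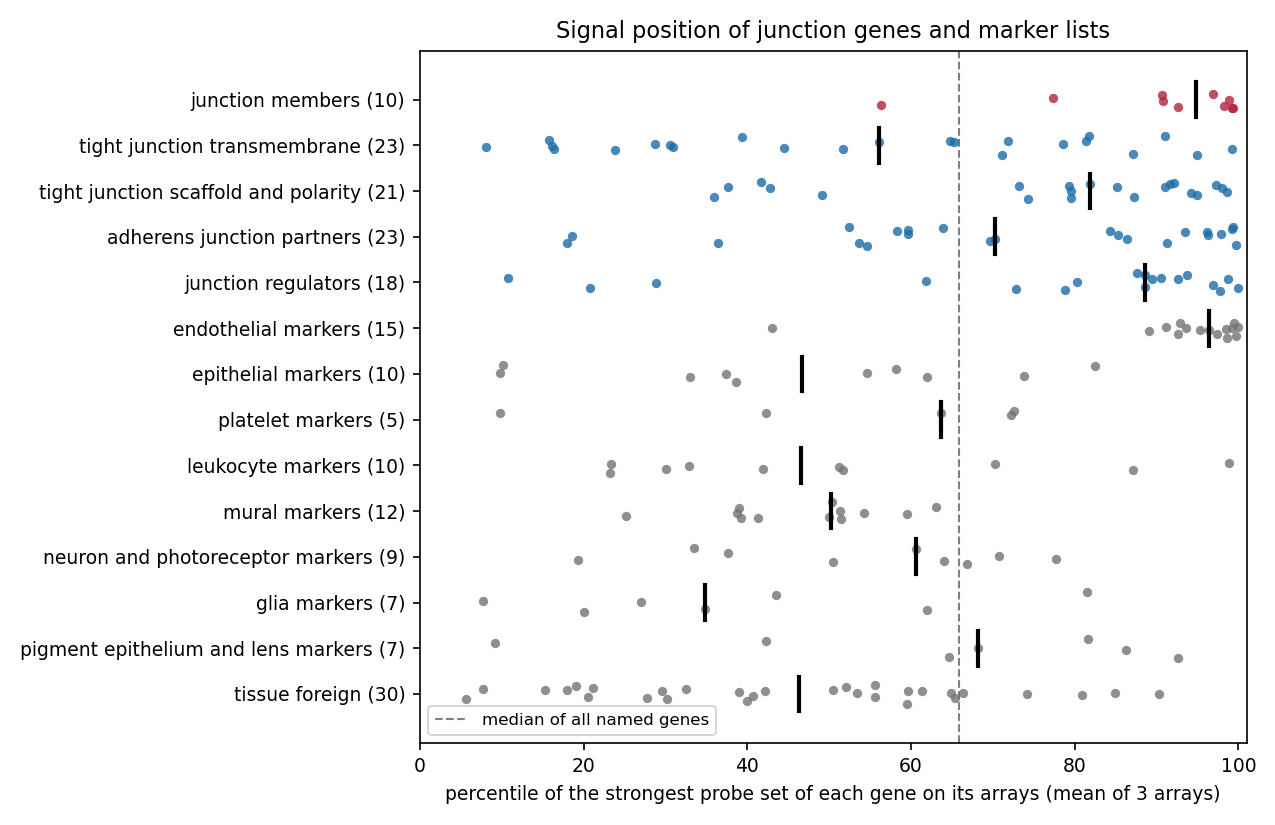
Percentile of the strongest probe set of each gene on its arrays (mean of 3 arrays), for the 10 junction members, the other junction lists, and marker lists of cell types and of genes foreign to the retina. Each point is a gene, the black bar is the median of the list, the dashed line is the median of all named genes at 65.9, and numbers in parentheses are genes measured. The members' median is 94.8, and 2 of them, Lsr and Ocln, lie below 90.

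Other junction genes lay at mixed positions. The median of the strongest probe sets was 94.8 for the 10 members, 56.1 for 23 other tight junction transmembrane genes, 81.9 for 21 scaffold and polarity genes, 70.3 for 23 adherens junction partners and 88.6 for 18 regulators of junctions, against 65.9 for all named genes. A probe set above the floor was found for 14 of the 23 transmembrane genes, 19 of the 21 scaffold and polarity genes, 20 of the 23 partners and 15 of the 18 regulators, against 72.4% of all named genes.

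Among transmembrane genes, Cldn12 was the highest. Its probe set on design C read 809, 716 and 705, at percentile 99.2 ± 0.064 (SD, n = 3). Ildr2, an angulin like Lsr, and Cldn7, a claudin of epithelia, followed at 95.001 ± 0.48 and 91.1 ± 0.77 (SD, n = 3 each). Their other probe sets ranged from 76.6 to 89.7 for Ildr2 and from 37.3 to 53.97 for Cldn7. Cldn1 was the lowest at 8.1 ± 2.1 (SD, n = 3), below the floor. Jam3, the third JAM, had a design A probe set at 64.8 ± 5.2 and a design C probe set at 54.02 ± 2.6 (SD, n = 3 each), both above the floor.

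Among scaffolds, the polarity kinase gene Prkci had a design B probe set at 98.7 ± 0.12 and a design A probe set at 27.8 ± 4.3 (SD, n = 3 each). Cgnl1 (paracingulin), which binds ZO-1, had one at 98.1 ± 0.49 (SD, n = 3) and others at 40.5 and 8.3, and Pard6g, another polarity gene, had a design B probe set at 97.2 ± 0.41 and a design C probe set at 1.6 ± 0.49 (SD, n = 3 each). Patj was the lowest at 35.9 ± 5.5 (SD, n = 3).

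Of the 23 adherens junction partners, Ctnnb1, Ptprb and Cdh13 were the highest by position. Ctnnb1 (beta-catenin) read 1540, 1614 and 1684, at percentile 99.2 ± 0.10 (SD, n = 3). The phosphatase gene Ptprb (VE-PTP), whose product binds VE-cadherin, lay at 99.3 ± 0.24 on design B, but its others were at 83.7 ± 1.3 (design A) and 18.4 ± 7.6 (design B; SD, n = 3 each). Cdh13 (T-cadherin) ranged from 21.3 to 99.7 over its probe sets. Afdn (afadin), which links nectins to actin, ranged from 23.5 to 96.3. Cdh2 (N-cadherin), which joins endothelial cells to pericytes, read 179, 243 and 156, at 86.4 ± 2.4 (SD, n = 3). Jup (plakoglobin) lay at 69.6 ± 1.3 by its design C probe set and at 43.8 ± 5.0 by that of design A, Pecam1 at 52.4 ± 2.5 and Ctnnd2, the neuronal relative of p120-catenin and the lowest of the list, at 17.9 ± 0.77 (SD, n = 3 each).

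Among regulators, Heg1, a receptor of the CCM complex that stabilises endothelial junctions, read 3280, 3164 and 3403 on design B, at percentile 99.98 ± 0.0081 (SD, n = 3), and 83.7 ± 5.2 on design C. The GTPase genes Rac1 and Cdc42, which act on junctional actin, lay at 98.7 ± 0.078 and 97.8 ± 0.42 on design A (SD, n = 3 each). Rac1 on design C lay at 2.6 ± 0.71 and Cdc42 on design B at 68.2 ± 6.1 (SD, n = 3 each). The exchange factor gene Vav2 was the lowest at 10.7 ± 1.8 (SD, n = 3).

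The label of endothelial cells was checked on other markers. Of 16 endothelial marker genes 15 were measured, and all 15 had a probe set above the floor, against 72.4% of all named genes. The strongest lay above percentile 90 for 13, against 17.1%, with Flt1 the highest at 99.9 ± 0.0049 on design C (SD, n = 3). Among these 13 was Tek, at 92.6 on design A. It encodes Tie2, whose promoter drove the GFP used for sorting, so Tek is not an independent check. Egfl7 was the lowest, at 43.1 ± 1.9 on design C (SD, n = 3). Pecam1, also an endothelial marker but listed here with the adherens junction partners, lay at 52.4 ± 2.5 (SD, n = 3). No strongest probe set lay above percentile 90 among 12 mural, 9 neuron and photoreceptor, 7 glia, 10 epithelial or 5 platelet genes, whose highest were Rgs5 (63.1), Tubb3 (77.7), Glul (81.5), Epcam (82.4) and Itga2b (72.6). For 7 pigment epithelium and lens genes it was 1, Cryaa at 92.7, and for 10 leukocyte genes 1, Laptm5. Median intensities ranged from 32.3 to 44.5 over the 9 arrays, and r between replicates, taken over the probe sets of a design on the log2 scale, ranged from 0.981 to 0.987, where probe sets are not independent replicates.

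Measured against genes foreign to the retina, most of these probe sets were also high. On each array another mark was set at the 90th percentile of the probe sets of genes typical of liver, pancreas, testis, pituitary and other organs. Of the 20 junction probe sets 13 exceeded it on all 3 arrays, against 37.3% of all probe sets, and all 10 genes had at least 1 such probe set, against 55.3% of all named genes. For Ocln this rests on 1 probe set of design B. On design A it was 7 of 12, against 34.1% of all. On design B it was 3 of 4, against 63.3% of all, where the mark rests on 4 probe sets and lies below the floor. On design C it was 3 of 4, against 13.4% of all, with Ctnna1 above it on 1 of 3 arrays.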

How the data were processed

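The values are intensities as the authors deposited them, on a linear scale, in 1 table per design. The sources used here do not say how probes were summarised or arrays scaled. Per the labels' protocols, RNA was amplified and labelled with biotin. The number of arrays limits the precision.

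Gene names came from the platform annotation, which gave 1 symbol to 29131 of 36701 probe sets, several to 724, and left 6846 unnamed here. Entrez identifiers, looked up in RefSeq for GRCm38.p6, changed no symbol. Percentiles were ranks within an array. Before log2, a value of 0 was set to the array's smallest positive value, and each array was centred on its median. Calculations used Python 3.11.15 with pandas 2.3.3 and were tested on simulated data. No model was fitted and no p-value is given, since all 9 arrays share 1 condition.

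The members and gene lists were chosen with earlier results of these data known, and the mark at percentile 90 and the motifs after values were seen. Named are all member probe sets, the 3 highest and 1 lowest gene of each junction list, 9 preset junction genes and the highest gene of each marker list. Ppbp was added later. Alternatives were other floors, plain probe sets, ranking among named probe sets, left-out replicates, 50 added before log2 and quantile normalization.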

Additional observations from a re-analysis of the deposited data

How the results depend on the processing

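The 14 probe sets above the floor became 13 with the floor at the 50th percentile or at the 90th percentile of the genes foreign to the retina, 12 with plain probe sets only, and 14 to 15 without a replicate. All 10 genes had a probe set above the floor with plain probe sets, without any 1 replicate, ranked among named probe sets and with the floor from genes foreign to the retina, and 9 with the floor at the 50th percentile. On design B the floor from foreign genes lies below the main one. For Ocln and Esam, above the main floor only on design B, that setting could therefore not remove the call. The median position of 90.2 became 90.7 with plain probe sets, 89.9 to 90.4 without a replicate, and 88.95 when probe sets were ranked among those with 1 gene symbol, more than the median SD of a member's percentile (0.59). The median SD between replicates of 0.22 (log2) was 0.096 to 0.17 without a replicate, 0.17 with 50 added to each intensity and 0.19 after quantile normalization. With 50 added or quantile normalization, no value was taken for all probe sets, so the difference from them was not tested there. An SD over 2 arrays rests on 1 difference. No paired analysis was possible because the designs hold different probe sets of 1 condition and were not compared. Signals near the floor, as for Ocln, may not be distinguishable from background here.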

Other observations

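Genes of tricellular junctions other than Lsr, chosen here after their values were seen, lay at unlike positions. Marveld2 (tricellulin) read 104, 105 and 108 on design B, at percentile 78.6 ± 0.64 (SD, n = 3), above the floor on every array. The angulin gene Ildr1 on the same design read 16.9, 14.8 and 18.7, at percentile 15.8 ± 2.6 (SD, n = 3), below it. Ildr2 had 3 probe sets above the floor.

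Of 15 claudin genes measured besides Cldn5, 8 had a probe set above the floor, against 72.4% of all named genes. Cldn2, Cldn3, Cldn4 and Cldn8 were among the 7 with none, the highest of these 4 at percentile 30.97 ± 5.2 for Cldn3 (SD, n = 3). Cldn6, Cldn10 and Cldn14 each had one above it, with strongest probe sets at 71.9, 56.1 and 81.8. Cldn11, a claudin of myelin and testis, had 1 probe set at 81.4 ± 2.1 and another at 1.01 ± 0.19 on design A (SD, n = 3 each). The claudins named in this paragraph were chosen after their values were seen.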
